A study of Nannospalax ehrenbergi and Mus musculus with 25 samples.

Results

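The myosin heavy and light chain genes of striated muscle were followed through muscle and tumor tissue of the house mouse and of Spalax, blind mole rats that live underground. They were taken by name and comprise 10 genes: the adult fast heavy chains Myh1, Myh2 and Myh4, the slow heavy chain Myh7, the developmental heavy chains Myh3 (embryonic) and Myh8 (perinatal), and the light chains Myl1, Myl2, Myl3 and Myl4. All 10 were found among the 47593 genes of the mouse table and 7 among the 27988 of the Spalax table, where no row is named Myh1, Myh2 or Myh4. Statements on adult fast heavy chains therefore concern the mouse, and Myh7, Myh3 and Myh8 are the heavy chains described in Spalax. Bulk RNA-seq of tissue from the side of the neck gave 25 libraries, each of a separate animal or of a separate side of it. The tumors had been induced by a subcutaneous injection of the carcinogen 3-methylcholanthrene (3MCA). In animals with a tumor, the injected side (IS) is the part of the tumor nearest to the body and the uninjected side (UIS) is muscle from the opposite side of the neck.

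Per the labels, a Spalax received 1 mg of 3MCA and a mouse 200 µg, each as 1 injection, and the controls received none. The Spalax were caught in the wild and their ages were estimated, at between about 2 years and 10 years or more. Which animal had which age is not given in the sources used here. The mice were males of the strain C57BL/6, 3 to 4 months old. Spalax control comprised 4 untreated females (1042, 1075, 2095 and 6038). Spalax tolerant comprised the injected side of 4 animals that had grown no tumor, 2251 and 2261 (males, sampled after 18 months), 2218 (male, 30 months) and 2375 (female, 30 months). Granuloma, a benign lesion, was sampled with its UIS in the females 600 (14 months) and 976 (16 months), and fibrosarcoma, a malignant tumor, in 2240 (female, 18 months) and 2230 (male, 30 months). The mouse groups were 3 untreated controls (M1, M2 and M5) and the IS and UIS of 3 animals with fibrosarcoma, 1019 (14 weeks), 1023 (12 weeks) and 512 (11 weeks). Sex was not balanced between Spalax control and tolerant, and the libraries of these 2 groups carried dual sequencing indexes while those of tumor-bearing Spalax carried single ones. Untreated Spalax were biopsied under isoflurane and recovered, while animals with a tumor were sampled after isoflurane had stopped their breathing. Index, sampling procedure and tumor bearing cannot be told apart in a comparison of Spalax UIS with control. Index and tumor bearing cannot be told apart in one with tolerant.

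Myosin is the motor of the thick filament. Each molecule holds a pair of heavy chains, which hydrolyze ATP and pull on actin, and each heavy chain binds an essential and a regulatory light chain at its neck. Adult fibers are typed by the heavy chain they make: Myh7 in slow oxidative fibers, Myh2 in fast oxidative fibers, and Myh1 and Myh4 in the faster glycolytic ones, Myh4 being the fastest. Myh3 and Myh8 are made in the embryo and around birth and again in regenerating fibers. Among the light chains, Myl1 is the essential chain of fast fibers, Myl3 the essential and Myl2 the regulatory chain of slow fibers and of the heart ventricle, and Myl4 the essential chain of embryonic muscle and the heart atrium.

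In the mouse genome (GRCm38, GENCODE vM21), 5 of the 6 heavy chain genes lie side by side on the plus strand of chromosome 11, Myh3 at chr11:67078300-67102291, Myh2 at chr11:67171027-67197517, Myh1 at chr11:67200052-67224575, Myh4 at chr11:67238029-67260446 and Myh8 at chr11:67277124-67308634. Myh7 lies apart, on the minus strand at chr14:54970684-54994626. The light chains are dispersed, with Myl1 at chr1:66924295-66945404 (minus strand), Myl2 at chr5:122100951-122113472, Myl3 at chr9:110741861-110769798 and Myl4 at chr11:104550663-104595753 (plus strand). Exons of other genes on the opposite strand cover 17.9% of the exon bases of Myh7 and 8.46% of those of Myh1, and since the sources used here do not give whether the counting used strand, reads there could belong to either gene.

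The heavy chains are close in sequence, which bears on how far their reads can be told apart. Aligned coding sequences of the mouse Myh1 and Myh2 were identical at 91.0% of positions and those of Myh1 and Myh4 at 90.1%, while Myh7 matched Myh3 at 76.7%. Of all stretches of 101 bases (the number of sequencing cycles) in each coding sequence, another gene also held 9.92% of those of Myh1, 9.29% for Myh2, 6.81% for Myh8, 3.87% for Myh4 and 1.17% for Myh3, always another heavy chain of the same cluster. For Myh7 it was 11.9%, all in common with the cardiac heavy chain Myh6, and for Myl1 19.4%, all in common with the annotated copy Mylf-ps. Myl2, Myl3 and Myl4 shared none. How the counting treated reads from shared stretches is not given in the sources used here, so small values of 1 heavy chain beside a very abundant relative are uncertain. The stretch of 101 aligned bases with most differences among the 6 genes lies near the start of the coding sequence. It is shown because reads there separate the 6 genes, with the 66 positions that differ in capitals:
Myh1: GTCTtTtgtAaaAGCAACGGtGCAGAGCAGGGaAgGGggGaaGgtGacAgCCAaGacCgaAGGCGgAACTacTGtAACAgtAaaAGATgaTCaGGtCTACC
Myh2: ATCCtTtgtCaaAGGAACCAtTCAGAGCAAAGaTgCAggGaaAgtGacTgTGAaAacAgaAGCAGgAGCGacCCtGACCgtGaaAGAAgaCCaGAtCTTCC
Myh4: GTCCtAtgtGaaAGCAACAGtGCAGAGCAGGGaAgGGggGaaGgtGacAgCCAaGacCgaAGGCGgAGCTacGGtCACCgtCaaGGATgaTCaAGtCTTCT
Myh8: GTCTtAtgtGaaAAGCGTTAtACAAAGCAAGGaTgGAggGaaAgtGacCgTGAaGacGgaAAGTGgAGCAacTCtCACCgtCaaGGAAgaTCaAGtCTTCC
Myh3: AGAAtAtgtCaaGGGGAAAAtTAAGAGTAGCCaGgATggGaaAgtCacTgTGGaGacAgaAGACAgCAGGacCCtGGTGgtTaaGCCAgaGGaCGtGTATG
Myh7: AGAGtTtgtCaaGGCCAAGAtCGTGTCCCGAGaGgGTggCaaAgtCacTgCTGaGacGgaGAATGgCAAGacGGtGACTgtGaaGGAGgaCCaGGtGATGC

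Each of these is read 5′ to 3′ on the gene's own strand from spliced coding sequence of GENCODE vM21 (GRCm38) and spans at least 1 intron in the genome. The positions are Myh1 at chr11:67202016-67202204, Myh2 at chr11:67173250-67173455, Myh4 at chr11:67240758-67240950, Myh8 at chr11:67278997-67279920 and Myh3 at chr11:67080133-67082312 on the plus strand and Myh7 at chr14:54992353-54992742 on the minus strand. In the stretch with fewest differences, only 9 positions vary among the 6 genes. It is shown for the most abundant adult chain, the perinatal chain and the slow chain (Myh4 at chr11:67246383-67246483, Myh8 at chr11:67288211-67288311 and Myh7 at chr14:54988363-54988463), again with the positions that vary among the 6 in capitals:
Myh4: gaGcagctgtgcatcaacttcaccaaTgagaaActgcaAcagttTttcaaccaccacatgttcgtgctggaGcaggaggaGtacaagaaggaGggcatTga
Myh8: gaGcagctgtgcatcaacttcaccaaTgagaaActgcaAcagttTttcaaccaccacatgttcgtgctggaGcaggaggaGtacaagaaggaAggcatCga
Myh7: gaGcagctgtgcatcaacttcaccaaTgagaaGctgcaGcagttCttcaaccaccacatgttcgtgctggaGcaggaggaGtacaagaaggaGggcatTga

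Library depth was 17025447 to 31179183 reads. Values are normalized reads, the deposited read counts divided by 1 factor per library, and 1 read was worth 0.517 to 1.44 of them. Skeletal muscle markers (Acta1, Ckm, Ttn, Des, Ryr1 and Neb) summed to 752849 to 2057604 in the 12 Spalax muscle libraries and to 585351 to 1906575 in the 6 of mouse, both labelled as muscle, against 243 to 6958 in Spalax IS and 306 to 76784 in mouse IS. Fibroblast markers summed to 114152 to 1889378 in Spalax IS and 7162 to 186754 in Spalax muscle, and to 139354 to 173019 and 4063 to 56643 in mouse, with 0 of the 6 genes at 0 in any library. Cardiac markers summed to 38.4 to 391 in Spalax IS and 174 to 2928 in Spalax muscle. In mouse they summed to 119 to 31256 in IS and 370 to 6611 in muscle. Of them, Nppa had a value of at most 1.23 in any library. In bulk tissue, fewer muscle fibers and less RNA of a gene per fiber cannot be told apart, and this holds for each IS result given here. Some libraries stood apart from others of their group. Granuloma IS 600 and mouse IS 1023 and 512 held more transcripts of muscle genes than the other IS of their species, tolerant 2251 was low in muscle markers and high in fibroblast markers (186754), granuloma UIS 976 was low in Myl1, and mouse UIS 512 had the fewest reads of Myh7 and Myl2 among mouse muscle libraries and none of the brown fat marker Ucp1. Leaving out any 1 library kept 0 members called in each comparison of muscle with muscle. The labels name the animal of UIS 976 in more than one way, 976 in the title and as the specimen and another number in the name of its reads, and it was kept as 976. The members together took 0.883% to 2.28% of all reads in Spalax muscle and 0.000247% to 0.0107% in Spalax IS, where 7 genes count, and 1.82% to 6.91% and 0.000601% to 0.229% in mouse, where 10 count.

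Among the heavy chains of mouse neck muscle, the fastest one, Myh4, was the most abundant in each of the 6 libraries. Per kilobase of exon, Myh4 had 35332, 61495 and 47304 normalized reads in controls M1, M2 and M5 and 114896, 72814 and 340953 in UIS 1019, 1023 and 512. Myh1 followed, at 12340.1, 14275 and 10143 in controls and 18608, 13529 and 10931 in UIS. Myh2 had 5678, 10861 and 5467 in controls and 7657, 10435 and 2100.2 in UIS. Myh4 thus stood above Myh1, and Myh1 above Myh2, in each library. The slow chain Myh7 lay lower still, at 1427, 1506 and 685 per kilobase in controls and 1708, 1669 and 104 in UIS, and the developmental Myh3 and Myh8 stayed at or below 90.4 per kilobase in all 6.

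As a share of the 6 heavy chains per kilobase, Myh4 took 69.5% ± 4.94 (SD, n = 3) in control and 83.5% ± 11.5 (SD, n = 3) in UIS, Myh1 took 18.2% ± 3.73 (SD, n = 3) and 9.95% ± 5.95 (SD, n = 3), Myh2 took 10.4% ± 1.86 (SD, n = 3) and 5.51% ± 5.0 (SD, n = 3), and Myh7 took 1.80% ± 0.767 (SD, n = 3) and 0.973% ± 0.854 (SD, n = 3). The spread in UIS came mostly from animal 512, where Myh4 reached 96.3% and Myh2 and Myh7 only 0.593% and 0.0292%, against 1.20% and 1.69% for Myh7 in the other two. Without it the mean Myh4 share of UIS was 77.1%. These shares are a description and were not tested.

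**Figure D1:**
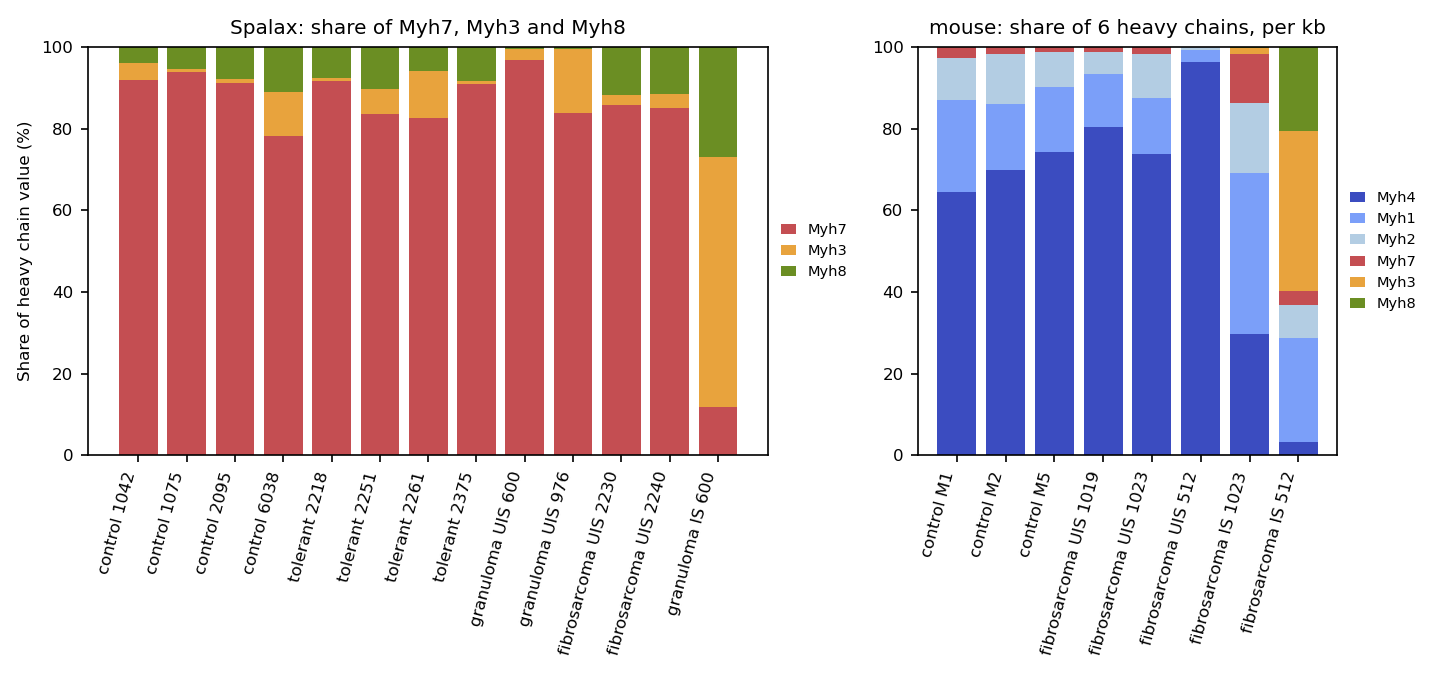
Share of the summed heavy chain value (vertical axis, %) taken by each heavy chain gene in each library with at least 100 heavy chain reads (horizontal axis, group and animal). Left, Spalax, where the shares are of Myh7, Myh3 and Myh8 alone and are not scaled for gene length. Right, mouse, 6 genes scaled per kilobase of exon. Myh4 fills 64.5% to 96.3% of the bars of mouse muscle, and the IS bars of Spalax 600 and mouse 512 are filled largely by Myh3 and Myh8.

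The comparison of mouse UIS with control asked whether muscle away from a tumor differs from untreated muscle, and no member passed the test. Across all genes 0 of 14792 were called by limma at an adjusted p of at most 0.05 (0% of those tested), 1621 had an unadjusted p under 0.05, edgeR called 0 and DESeq2 342. Myh4 had 212559, 369952 and 284580.2 normalized reads in the controls and 691217, 438046 and 2051173 in UIS 1019, 1023 and 512. Each UIS value lay above each control value, and the share of all genes separated in this way is not given here. The mean difference of Myh4 was 1.60 ± 0.78 (SE, adjusted p = 0.479) on the log2 scale. DESeq2 alone called it (adjusted p = 0.0493), against 0.425 by edgeR, and without UIS 512 the difference was 0.97. The slow genes were uneven within UIS. Myl2, the slow regulatory chain, had 19365, 20893 and 908 in UIS 1019, 1023 and 512 and 7669, 14444 and 3959 in control, so that the low value was that of 512. Myh7 had 9007, 9508 and 4325 in control and 10782, 10537 and 654 in UIS, and again only 512 lay below the controls. In the same library the brown fat marker Ucp1 had 0 normalized reads, against 13179.6 and 2217 in the other UIS and 45978, 24005 and 42398 in control. White fat markers summed to 88235 to 133572 in control and to 7169 to 76999 in UIS. Skeletal muscle markers summed to 585351 to 1235169 in control and to 893851 to 1906575 in UIS. The part of these markers in the Myh4 value was not tested.

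In Spalax muscle, none of the 7 members separated control, tolerant and UIS by the test. These comparisons asked whether muscle that had resisted the carcinogen, or that lay away from a tumor, differs from untreated muscle. Between tolerant and control, limma called 0 of 14020 genes (0% of those tested), with 733 at an unadjusted p under 0.05, 0 by edgeR and 60 by DESeq2. Between UIS and control it called 0 of 13909 (0% again), with 2315, 0 and 516. Between UIS and tolerant it called 1 of 14029 (0.00713%), with 718, 1 and 38. Slow Myl3 had 12853, 18718, 33257 and 13325 normalized reads in controls 1042, 1075, 2095 and 6038, 10948 and 6470.5 in granuloma UIS 600 and 976 and 7218 and 10796 in fibrosarcoma UIS 2230 and 2240. Each UIS value lay below each control, and the share of all genes separated in this way is not given here. The difference of Myl3 was -1.07 ± 0.34 (SE, adjusted p = 0.219) on the log2 scale by limma. DESeq2 alone called it (adjusted p = 0.0493), and edgeR gave 0.200. Every other member differed by less than 2 SE in these 3 comparisons.

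Single animals spread widely. The slow heavy chain Myh7 had 31282 in 1042, 51389 in 1075, 58199 in 2095 and 34886 in 6038 normalized reads (controls), 117856 in 2218, 33369 in 2251, 30603 in 2261 and 89287 in 2375 (tolerant), and 38219 and 74901 in UIS 600 and 976 with 40384 and 67809 in UIS 2230 and 2240. The 3 groups overlapped, with means of 43939 ± 12923 (SD, n = 4) in control, 67779 ± 42959 (SD, n = 4) in tolerant and 55328 ± 18752 (SD, n = 4) in UIS. Tolerant 2218 and 2375 were the highest of all 12 and both had been sampled after 30 months. Fibrosarcoma UIS 2230, also sampled after 30 months, lay within the range of the controls.

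Embryonic Myh3 spanned a wider range. It had 1353, 482, 544 and 4914 in controls 1042, 1075, 2095 and 6038, and 989, 2444, 4264 and 663 in tolerant 2218, 2251, 2261 and 2375. In UIS it had 1067 and 13951 in 600 and 976 and 1059 and 2714 in 2230 and 2240. UIS 976 stood above every other muscle library and the remaining groups overlapped. Perinatal Myh8 showed another pattern, with 1362, 2937, 5077 and 4879 in the controls and 9631, 4059, 2156 and 8152 in tolerant in the same order of animals. In UIS it had 198 and 488 in the granuloma animals and 5580.0 and 9221 in the fibrosarcoma animals. Both granuloma UIS libraries lay below all 10 other Spalax muscle libraries for Myh8, while both fibrosarcoma UIS libraries lay above all 4 controls. Granuloma UIS and fibrosarcoma UIS were not compared by a test of their own. How many other genes separated these libraries in the same way is not given here.

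For the light chains, the fast essential chain Myl1 had 349698, 208873, 360599 and 340926 in controls 1042, 1075, 2095 and 6038, 324311, 115126, 289265 and 157667 in tolerant 2218, 2251, 2261 and 2375, 250194 and 74345 in UIS 600 and 976, and 376739 and 309721 in UIS 2230 and 2240. The lowest were UIS 976, tolerant 2251 and tolerant 2375. The mean of slow Myl2 came to 56123 ± 25636 (SD, n = 4) for control, 70033 ± 45342 (SD, n = 4) for tolerant and 38219.7 ± 4388 (SD, n = 4) for UIS. The spread of Myl2 was narrowest in UIS. Embryonic Myl4 ranged from 16.9 in UIS 600 to 562 in tolerant 2251.

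Within a Spalax library, Myh7 took 88.8% ± 7.20 (SD, n = 4) of the summed value of Myh7, Myh3 and Myh8 in control, 87.3% ± 4.76 (SD, n = 4) in tolerant, 90.3% ± 9.16 (SD, n = 2) in granuloma UIS and 85.5% ± 0.600 (SD, n = 2) in fibrosarcoma UIS. Myh3 took between 0.676% (tolerant 2375) and 15.6% (granuloma UIS 976, Wilson 95% interval 15.4 to 15.9%, counting error only). The share of Myh8 was 0.501% and 0.546% in granuloma UIS and 4.0% to 11.9% in the other 10. These shares leave out the adult fast heavy chains and are not scaled for length, so they compare libraries and not genes.

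**Figure D2:**
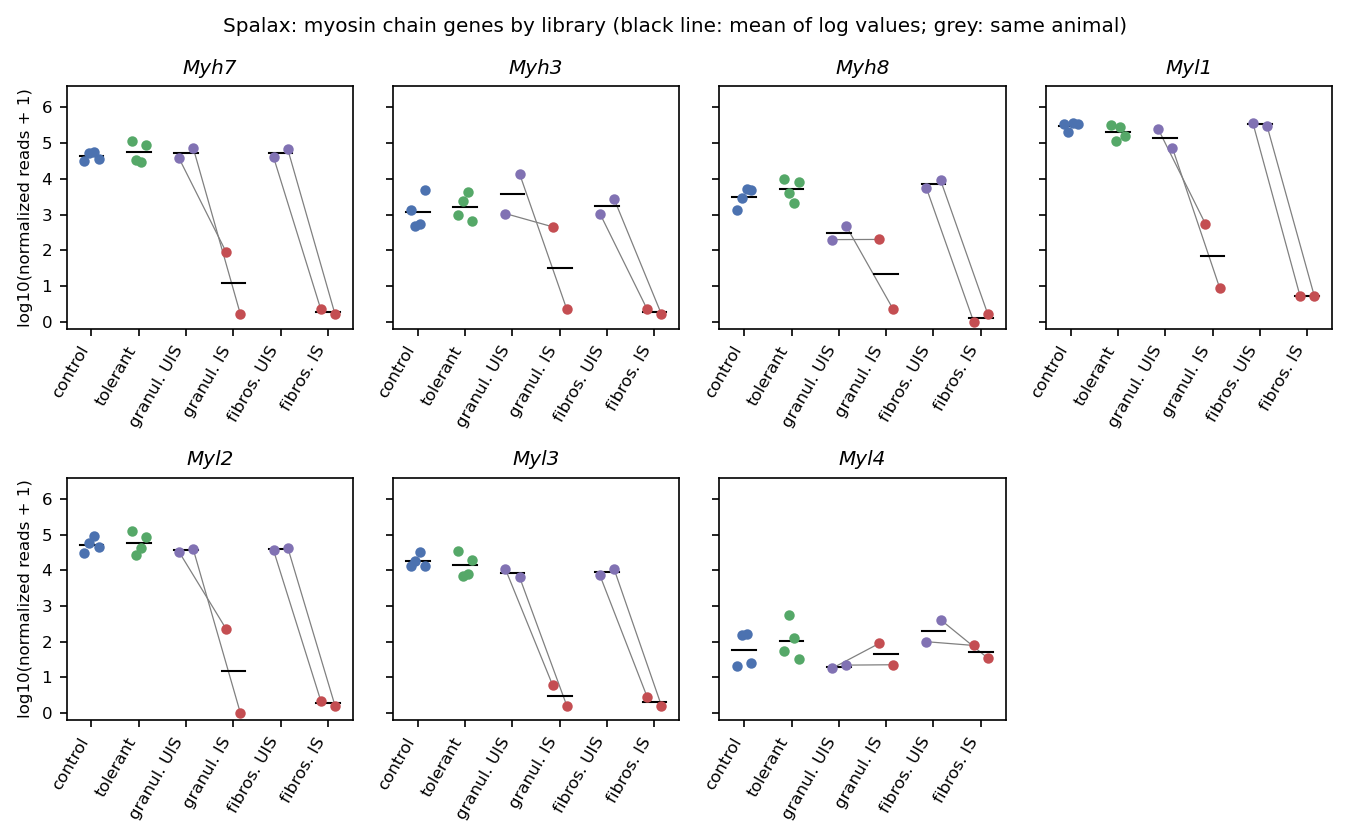
Normalized reads of the 7 members found in Spalax, as log10(normalized reads + 1) on the vertical axis, by group (horizontal axis). Each point is 1 library, the black line is the mean of the log values, and grey lines join the UIS and IS of 1 animal. All panels but that of Myl4 drop in IS, except for Myh8 of animal 600 (198 in UIS and 200.3 in IS), with granuloma IS 600 above the other 3 IS libraries, while Myl4 spans 21.8 to 88.6 in IS and 16.9 to 562 in muscle.

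Spalax fibrosarcoma held almost no transcripts of 6 of the 7 members, in a comparison of tumor with muscle of the same animals. Myh7 fell from 40384 and 67809 normalized reads in UIS 2230 and 2240 to 1.20 and 0.615 in IS, which are 2 reads and 1 read. Myl1 fell from 376739 and 309721 to 4.20 and 4.30, or 7 reads each. The developmental chains were no exception here, with Myh3 going from 1059 and 2714 to 1.20 and 0.615 and Myh8 from 5580.0 and 9221 to 0 and 0.615. Summed over both animals, UIS exceeded IS by 60599-fold (95% interval 20735 to 293858) for Myh7, 80137-fold (95% interval 47762 to 146582) for Myl1, 44044-fold (95% interval 15070.3 to 213579) for Myl2, 7535-fold (95% interval 2942 to 27658) for Myl3, 2144-fold (95% interval 733 to 10403) for Myh3 and 24856-fold (95% interval 4460.2 to 981835) for Myh8, where the exact intervals cover counting error only. Myl4 was the exception among the members, at 99.5 and 415 normalized reads in UIS and 78.0 and 33.8 in IS of 2230 and 2240. By these values it was lower in both animals, at -1.96 ± 0.87 (SE, adjusted p = 0.145) on the log2 scale. Before scaling, 2230 had 130 reads in IS and 70 in UIS. Myl4 was not called by limma or by edgeR (adjusted p = 0.114), whereas DESeq2 called it (adjusted p = 0.0263).

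By limma, with 2 libraries against 2, 6 of 7 members were lower in fibrosarcoma IS than in UIS, where 19% of all 14696 genes tested were called lower and 17.4% higher. The log2 differences were -15.99 ± 0.23 (SE, adjusted p = 0.000351) for Myl1, -14.76 ± 0.40 (SE, adjusted p = 0.000638) for Myh7, -14.36 ± 0.33 (SE, adjusted p = 0.000481) for Myl2, -12.46 ± 0.51 (SE, adjusted p = 0.000923) for Myh8, -12.02 ± 0.48 (SE, adjusted p = 0.000903) for Myl3 and -9.81 ± 0.64 (SE, adjusted p = 0.00259) for Myh3. With so few reads in IS these fitted values depend on the pseudocount, and for Myh8 ranged from -13.23 to -10.40 between pseudocounts of 0.5 and 5. Leaving out either UIS library left 0 members and 0 genes called, in a fit where the lone sample is assumed to vary like the other pair, and leaving out either IS library kept 6 members called.

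In granuloma the slow heavy chain and the adult light chains fell, and the tumors of the 2 animals differed in level. In 976 the tumor held 0.604 normalized reads of Myh7 (1 read), 7.85 of Myl1, 1.21 of Myh3, 1.21 of Myh8 and none of Myl2. In 600 it held 87.1 of Myh7, 544 of Myl1, 225 of Myl2, 453 of Myh3 and 200.3 of Myh8. As a percentage of its own UIS, the value in IS 600 was 0.228% for Myh7, 0.218% for Myl1, 0.677% for Myl2 and 0.0464% for Myl3, but 42.4% for Myh3, 101% for Myh8 and 525% for Myl4. UIS 600 had the lowest Myh8 (198 normalized reads) and Myl4 (16.9, from 14 reads) of the Spalax muscle libraries. In IS 600, Myh3 and Myh8 lay below every control and tolerant library. Its Myl4, at 88.6, lay within the control range of 19.9 to 162. Developmental genes made up most of the reads of Myh3, Myh7 and Myh8 in IS 600. Adult fast heavy chains are not named in Spalax and are left out of this share. Myh3 was 61.2% of the 1020 reads of Myh3, Myh7 and Myh8 in this library (Wilson 95% interval 58.1 to 64.1%), Myh8 was 27.1% and Myh7 11.8%, where its UIS had 2.70%, 0.501% and 96.8%. The 5 markers of muscle precursors and regenerating fibers found in the table (of 6 listed) summed to 4309 in IS and 1984 in UIS of 600 and to 1867 and 962 in 976. Of the 4 of them tested in granuloma, Ncam1, a cell adhesion molecule, was higher in IS, and Myf5, Myod1 and Myog, transcription factors of the muscle lineage, were lower. Pax7 was at 0 in both granuloma IS, and Myf5, Myod1 and Myog were at 0 in IS 976.

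Limma called 4 of 7 members lower in granuloma IS than UIS, Myl3 at -11.40 ± 0.79 (SE, adjusted p = 0.00492), Myh7 at -12.14 ± 1.82 (SE, adjusted p = 0.0138), Myl1 at -10.94 ± 1.92 (SE, adjusted p = 0.0187) and Myl2 at -11.24 ± 2.41 (SE, adjusted p = 0.0295) on the log2 scale. Of all 14735 genes, 12.6% were called lower and 11.7% higher. Not called were Myh3 at -6.93 ± 2.63 (SE, adjusted p = 0.112), Myh8 at -3.89 ± 2.11 (SE, adjusted p = 0.224) and Myl4 at 1.18 ± 0.91 (SE, adjusted p = 0.375). Under edgeR the calls of Myl1 (adjusted p = 0.0578) and Myl2 (adjusted p = 0.0808) were lost. Leaving out any 1 of the 4 libraries, IS or UIS of 600 or of 976, left 0 members and 0 genes called, with the lone sample assumed to vary like the other pair. Myl4 was higher in IS of both animals, 88.6 and 21.8 against 16.9 and 21.2 in UIS of 600 and 976, although in 976 it differed by less than 1 normalized read.

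Over the 4 tumor-bearing Spalax, 6 of 7 members were lower in IS, and 26.5% of the 14431 genes tested were called lower and 26.1% higher. The log2 differences were -13.46 ± 1.38 (SE, adjusted p = 6.35e-05) for Myl1, -13.45 ± 1.17 (SE, adjusted p = 2.64e-05) for Myh7, -12.80 ± 1.48 (SE, adjusted p = 0.000122) for Myl2, -11.71 ± 0.46 (SE, adjusted p = 1.06e-06) for Myl3, -8.37 ± 1.75 (SE, adjusted p = 0.00325) for Myh3, -8.17 ± 1.81 (SE, adjusted p = 0.00448) for Myh8 and -0.39 ± 0.98 (SE, adjusted p = 0.761) for Myl4. The smallest SE was that of Myl3, whose 4 IS values ran from 0.604 to 5.08 normalized reads. Leaving out any of the 8 libraries, IS 600 included, kept 6 members called. EdgeR called 5, without Myh3 (adjusted p = 0.0558), and DESeq2 5, with no adjusted p for Myl2. Of the 6 fibroblast markers 4 were higher and none lower, and the 6 skeletal muscle markers were all lower. The part of these markers in the result was not tested.

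In mouse fibrosarcoma the adult fast heavy chains and the light chains Myl1, Myl2 and Myl3 fell, and the tumors of the 3 animals differed in level. Myh4 had 691217, 438046 and 2051173 normalized reads in UIS 1019, 1023 and 512 and 14.0, 1727 and 469 in IS. The other fast chains were at 9.30, 2313 and 3899 (Myh1) and 2.07, 1005 and 1213 (Myh2) in IS, from 113266, 82349 and 66534 and 46576, 63477 and 12775 in UIS. IS 1019 was near 0 for all 3, and IS 1023 and 512 had 2.81% and 5.86% of their UIS value for Myh1 but only 0.394% and 0.0229% for Myh4. Each IS value of the 3 genes lay below each UIS value, while the share of all genes separated in this way is not given here. The slow chain Myh7 had 1.55, 735 and 526 in IS 1019, 1023 and 512 and 10782, 10537 and 654 in UIS, and IS 1023 exceeded UIS 512, so that the groups overlapped.

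Among the light chains, Myl1 had 4.13, 1435 and 8943 in IS 1019, 1023 and 512 against 205800.2, 87212 and 184296 in UIS, Myl2 had 2.58, 358 and 127 against 19365, 20893 and 908, and Myl3 had 0.517, 99.1 and 14.2 against 8154, 4654 and 1093. None of these 3 overlapped between IS and UIS. The share of all genes without overlap is not given here, and 8249 of 15220 genes had an unadjusted p under 0.05 by limma. Limma called 6 of the 10 members lower and none higher, where 22.3% of all 15220 genes were called lower and 22.8% higher. The log2 differences were -11.86 ± 1.69 (SE, adjusted p = 0.00357) for Myh4, -8.03 ± 1.54 (SE, adjusted p = 0.00842) for Myl3, -7.03 ± 1.96 (SE, adjusted p = 0.0274) for Myl2, -7.56 ± 2.15 (SE, adjusted p = 0.0293) for Myh1, -7.75 ± 2.28 (SE, adjusted p = 0.0326) for Myh2 and -8.53 ± 2.55 (SE, adjusted p = 0.0344) for Myl1. Myh7, at -5.40 ± 2.32 (SE, adjusted p = 0.100), was not called by limma, whereas DESeq2 called it (adjusted p = 0.0114). EdgeR lost the call of Myl1 (adjusted p = 0.0757). Of the 6 fibroblast markers 3 were higher in IS and none lower, and their part in the result was not tested. The count of members called was 2 without UIS 1019, 2 without UIS 1023, 3 without UIS 512, 5 without IS 1023, 6 without IS 1019 and 8 without IS 512.

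**Figure D3:**
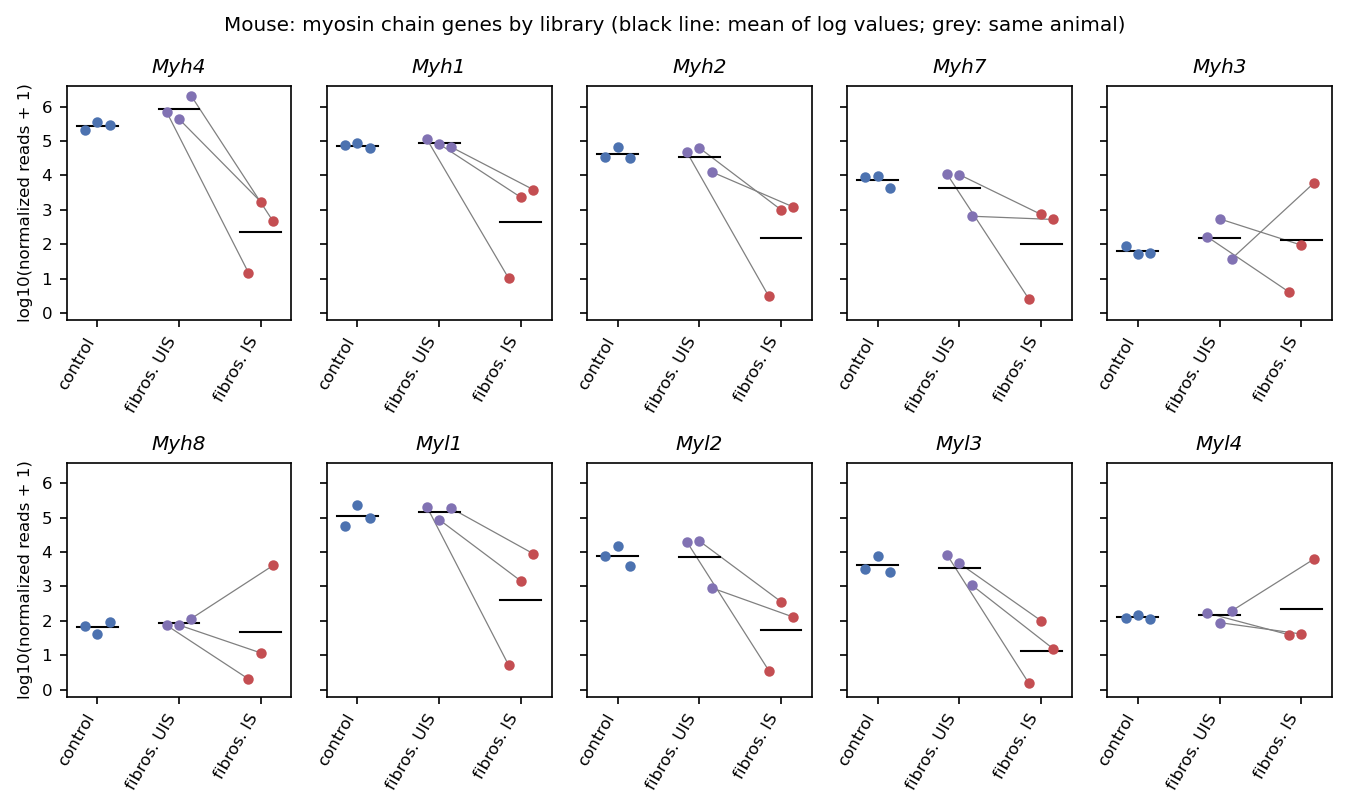
Normalized reads of the 10 members in mouse, as log10(normalized reads + 1) on the vertical axis, by group (horizontal axis). Each point is 1 library, the black line is the mean of the log values, and grey lines join UIS and IS of 1 animal. For Myh3, Myh8 and Myl4 the line of animal 512 rises, to 5921, 4047 and 6126, and those of the other 2 animals fall.

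The developmental chains went in opposite directions among the 3 mouse tumors. Embryonic Myh3 had 163, 548 and 37.4 normalized reads in UIS 1019, 1023 and 512 and 3.10, 93.7 and 5921 in IS. Perinatal Myh8 had 72.6, 74.3 and 115 in UIS and 1.03, 10.7 and 4047 in IS, and embryonic Myl4 167, 87.7 and 194 and 38.2, 40.3 and 6126. In animal 512 the tumor exceeded its own UIS 158-fold for Myh3, 35.1-fold for Myh8 and 31.5-fold for Myl4, and exceeded every control and UIS library for all 3. In 1019 and 1023 the 3 genes were lower in IS than in UIS. No call resulted over the 3 animals, with log2 differences of -0.20 ± 2.54 (SE, adjusted p = 0.956) for Myh3, -0.91 ± 2.61 (SE, adjusted p = 0.797) for Myh8 and 0.59 ± 1.92 (SE, adjusted p = 0.823) for Myl4. The values of 512 are those of 1 tumor, with no replicate.

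In IS 512, Myh3 and Myh8 together outweighed the adult chains per kilobase. Myh3 made up 39.2% of the 6 heavy chains, Myh1 25.7%, Myh8 20.6%, Myh2 8.0%, Myh7 3.34% and Myh4 3.13%. In IS 1023, which also had enough heavy chain reads for shares, the order was Myh1 at 39.4%, Myh4 at 29.7%, Myh2 at 17.1%, Myh7 at 12.1%, Myh3 at 1.60% and Myh8 at 0.140%, with adult chains making up nearly all. IS 1019 had too few heavy chain reads for shares.

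Other genes of developing muscle were high in the same library. Myog had 10921 normalized reads in IS 512 and 1.03 and 16.0 in IS 1019 and 1023, Myod1, a master regulator of the muscle lineage, 2831 against 0.517 and 6.52, and Pax7, which marks satellite cells, 1755 against 0 and 0.593. Myf5, another lineage regulator, had 888 against 3.62 and 1.19. The highest value of these 4 genes in control or UIS was 461, for Myod1 in control M2. Actc1 and Tnnt2, the cardiac actin and troponin T genes that developing skeletal muscle also makes, had 22109.8 and 9103 in IS 512 and 6523 and 79.2 in UIS 512, with at most 7.71 and 24.3 in the other IS. Of the other cardiac markers, Nppa and Nppb had 1.05 and 0.526 there. All 6 cardiac markers, Actc1 and Tnnt2 included, summed to 31256 in IS 512 and to 119 in each other IS. The 6 fibroblast markers summed to 139354 in IS 512 and to 157445 and 173019 in IS 1019 and 1023, with Col1a1 highest and Pdgfra, Dcn and Lum lowest in IS 512 among the 3.

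**Figure D4:**
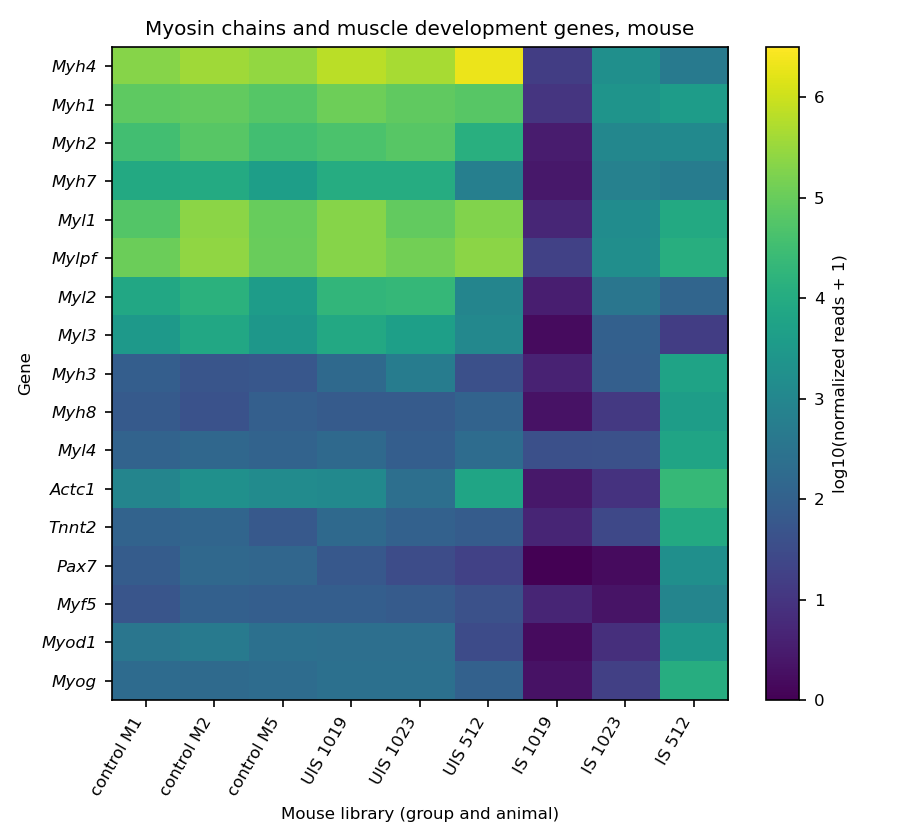
Color gives log10(normalized reads + 1) of myosin chain genes and of genes of developing muscle (vertical axis) in the 9 mouse libraries (horizontal axis, group and animal). The column of IS 512 is bright for Myh3, Myh8, Myl4, Actc1 and Myog, where IS 1019 and IS 1023 are dark, while Myh4 in IS 512 has 469 normalized reads.

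**Figure D5:**
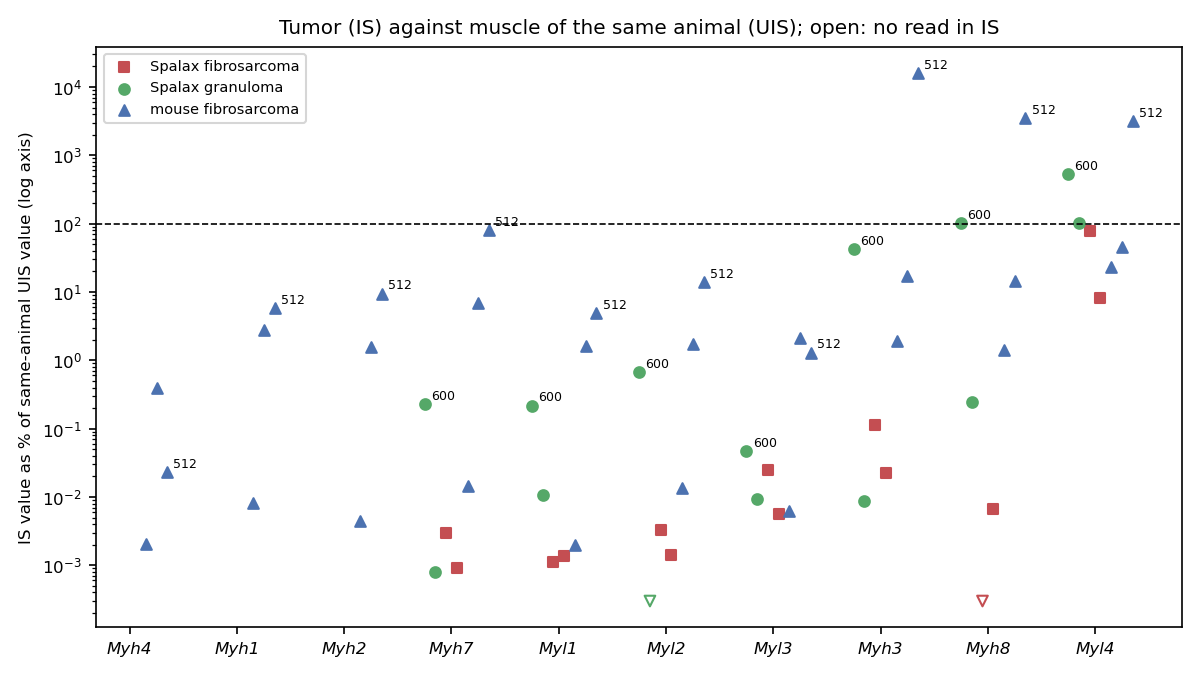
IS value of each member as a percentage of the UIS value of the same animal, on a log axis, with 1 symbol per animal, shaped and colored by the kind of tumor, a dashed line at 100% and open triangles for members without a read in IS. Adult heavy chains and Myl1, Myl2 and Myl3 lie below the line in all 7 animals, down to 0.000807% for Myh7 in granuloma 976, and Myh3, Myh8 and Myl4 lie above it in mouse 512 at 15819.7%, 3514% and 3152%.

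Interaction terms tested whether the drop from UIS to IS was of unequal size among the tumors. Between Spalax fibrosarcoma and granuloma, limma called 0 of 15584 genes (0% of those tested, 766 at an unadjusted p under 0.05, 0 by edgeR, 88 by DESeq2) and 0 of 7 members. A negative value means a larger drop in fibrosarcoma. The interaction was -8.58 ± 2.56 (SE, adjusted p = 0.946) on the log2 scale for Myh8, whose level was lower in granuloma UIS, -5.05 ± 2.32 (SE, adjusted p = 0.946) for Myl1 and -3.14 ± 1.34 (SE, adjusted p = 0.946) for Myl4. DESeq2 alone called Myh8 (adjusted p = 0.000127) and Myl1 (adjusted p = 0.0220). A direct comparison of the IS libraries, in which 0 of 14562 genes were called (0%, 591 at an unadjusted p under 0.05, 0 by edgeR, 153 by DESeq2), tested only Myl4, since the other 6 members had a value of 10 in too few IS libraries, and gave 0.22 ± 0.94 (SE, adjusted p = 1.00).

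Between Spalax and mouse fibrosarcoma, 438 of 11085 shared genes (3.95%) were called by limma and 0 of the 7 shared members. On the log2 scale, a negative value means a larger drop in Spalax, or a drop there against a rise in mouse. The interaction was -11.55 ± 3.57 (SE, adjusted p = 0.107) for Myh8 and -9.62 ± 3.49 (SE, adjusted p = 0.155) for Myh3. It was -9.36 ± 3.17 (SE, adjusted p = 0.133) for Myh7, -7.46 ± 3.47 (SE, adjusted p = 0.253) for Myl1 and -7.33 ± 2.68 (SE, adjusted p = 0.157) for Myl2. Each exceeded 2 SE. Starting levels differed, with UIS Myh8 at 5580.0 and 9221 in Spalax and 72.6 to 115 in mouse. UIS Myh3 was at 1059 and 2714 against 37.4 to 548. Both genes thus had less room to fall in mouse, and in mouse 512 both rose. The part of these levels in the interaction was not tested. Leaving out mouse IS 1019, the tumor with the fewest muscle transcripts, brought 4 members past the threshold (Myh7, Myl1, Myl2 and Myh3), and leaving out mouse IS 512 brought 1 (Myh8). DESeq2 called 4 (Myh7, Myl1, Myl2 and Myl3), with no adjusted p for Myh3, Myh8 and Myl4, and edgeR called 0. Of all 11085 genes DESeq2 called 1711 and edgeR 391, and limma called 316 without mouse IS 1019 and 269 without mouse IS 512. Each table has its own normalization and gene models, and only differences within a table entered.

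Over the 12 Spalax muscle libraries, the slow light chains Myl2 and Myl3 varied together and Myh7 ran with them less firmly, as a description without a test. Among 21 pairs, Myl2 and Myl3 had the highest correlation of log2 values (Pearson's r = 0.88 and rho = 0.79), followed by Myh7 and Myl2 (r = 0.78 and rho = 0.66) and Myh7 and Myl3 (r = 0.55 and rho = 0.40). Without the 2 libraries farthest from the median of the first gene these r were 0.71, 0.50 and 0.19. The last thus rests on those libraries, and the second does in part. Within the 8 dual-index libraries of control and tolerant these r were 0.91, 0.92 and 0.82. Embryonic Myh3 ran against Myl3 (r = -0.67 and rho = -0.68, -0.69 without the 2 farthest and -0.72 within the 8). Perinatal Myh8 and Myh7 had r = 0.35 and rho = 0.56, with r = 0.05 without the 2 farthest and 0.82 within the 8, so this relation rests on the choice of libraries. For the 2 developmental heavy chains, r = -0.30 and rho = -0.34, and r = -0.05 without the 2 farthest. In the 6 mouse muscle libraries, among 45 pairs, Myh7 and Myl2 varied together (r = 0.96 and rho = 0.94, 0.93 without the 2 farthest libraries). This was not particular to slow genes. The fast chain Myh2 had r = 0.95 and rho = 0.83 with Myl2, and r = 0.93 and rho = 0.77 with Myh7. Without the 2 farthest libraries these r were 0.89 and 0.68. UIS 512 was the lowest library for Myh2, Myh7 and Myl2. Myh4 and Myh7 had r = -0.75 and rho = 0.09, which rests on the 2 libraries farthest from the median of Myh4, UIS 512 among them, since r was 0.77 without them. The values of a library share its depth and its tissue composition.

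The genes most like Myh7 over the 12 Spalax muscle libraries, of 12238 named genes ranked by Pearson's r, were Tnni1 (r = 0.91), Atp2a2 (r = 0.90), Tnnc1 (r = 0.89), Tpm3 (r = 0.89) and Per1 (r = 0.89). The first 4 are the slow troponin I, the slow calcium pump, the slow troponin C and the slow tropomyosin, and Per1 is a clock gene. Without the 2 libraries farthest from the median of Myh7 their r ran from 0.74 to 0.87. Among the 5 most like Myh3 were Rchy1 (r = 0.86), Mms19 (r = 0.85), Vwa9 (r = 0.85) and Noc4l (r = 0.84), with r from 0.64 to 0.77 for these without the 2 farthest. The same ranking for Myh4 could not be made in Spalax.

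The other myosin genes and their partners gave the following counts of calls by limma in IS against UIS. Over all genes, 12.6% were called lower in granuloma, 19% in Spalax fibrosarcoma and 22.3% in mouse. Of 8 other striated muscle myosin chains, 6 of 6 tested were lower in granuloma, 5 of 5 in Spalax fibrosarcoma and 1 of 4 in mouse, and none was higher. The mouse count was thus near the share over all genes. The 1 called in mouse was Mylpf, the regulatory light chain of fast fibers, at -8.07 on the log2 scale, against -10.71 in granuloma and -15.02 in Spalax fibrosarcoma. Of 8 genes for myosin binding, phosphorylation and assembly, 6, 7 and 6 of 7 tested were lower in the 3 tumors in that order, among them Mybpc1 (slow myosin binding protein C) at -10.81, -13.81 and -7.70 and Unc45b, a myosin chaperone, at -8.23, -10.85 and -5.30. Over all genes the median log2 difference was -0.01, 0.03 and 0.11, and over the tested genes of this list -9.46, -11.29 and -7.70, against -5.95, -7.41 and -3.35 for the other striated chains.

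The partner genes of fast and slow fibers gave these counts. Of 6 fast partner genes, 5 of 6 tested were lower in granuloma, 6 of 6 in Spalax fibrosarcoma and 5 of 5 in mouse, with the fast troponin T Tnnt3 at -9.73, -13.17 and -9.10. Of 6 slow partner genes, 6 and 6 were lower in the Spalax tumors and 1 in mouse, which was the oxygen store Mb at -8.87. Over all genes 12.6%, 19% and 22.3% were called lower in granuloma, Spalax fibrosarcoma and mouse. The slow count in mouse was thus near the share over all genes. The slow troponin I Tnni1 gave -2.67 ± 2.14 (SE, adjusted p = 0.342) in mouse, with 23.8, 224 and 5578 normalized reads in IS 1019, 1023 and 512 against 7909.7, 4075 and 248 in UIS, where IS 512 was high and UIS 512 low. Whether fast and slow partners differed from each other was not tested. The median log2 difference of the tested fast partners was -9.96 in granuloma, -12.52 in Spalax fibrosarcoma and -9.10 in mouse, and that of the slow partners -8.88, -9.79 and -3.00.

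Myosins of smooth muscle and of cells other than muscle were called in both directions. Of 8 smooth and nonmuscle chains, 3 were higher and 2 lower of 5 tested in granuloma (11.7% and 12.6% over all genes), 1 and 1 of 5 in Spalax fibrosarcoma (17.4% and 19%), and 2 and 2 of 8 in mouse (22.8% and 22.3%). Myh9, the nonmuscle heavy chain of most motile cells, was higher in all 3, by 1.72 ± 0.41 (SE, adjusted p = 0.0384), 2.32 ± 0.30 (SE, adjusted p = 0.00912) and 2.75 ± 0.33 (SE, adjusted p = 0.00245) on the log2 scale. Myh10, another nonmuscle chain, rose by 4.15 ± 0.43 (SE, adjusted p = 0.00733) in granuloma and by 1.91 ± 0.48 (SE, adjusted p = 0.0199) in mouse and gave 0.79 ± 1.27 (SE, adjusted p = 0.658) in Spalax fibrosarcoma, where IS 2230 had 84.0 and IS 2240 1089 normalized reads. The smooth muscle heavy chain Myh11 was lower in all 3, at -2.26 ± 0.44 (SE, adjusted p = 0.0231), -2.53 ± 0.54 (SE, adjusted p = 0.0273) and -4.04 ± 0.38 (SE, adjusted p = 0.00142). The median log2 difference of the tested genes was 1.66, 0.69 and 0.44.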

How the data were processed

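Total RNA of 16 Spalax and 9 mouse libraries was sequenced with a strand-specific TruSeq kit for 101 cycles. Per the labels, reads were mapped with TopHat 1.4.1, counted with HTSeq and normalized with DESeq, with GRCm38 as the mouse build. Spalax reads were mapped to the published Spalax genome, whose assembly version is not given in the sources used here, nor is whether the counter used strand. The deposited values are a signal, the read counts per gene divided by 1 size factor per library. Dividing each value by the worth of 1 read gave whole reads (within 0.01 read) for 100% of the values, and these reads were used for the count tests. Depth was 17025447 to 31179183 reads per library, so that a value of 10 stood for 6.95 to 19.3 reads.

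Members were matched by symbol. A comma inside 2387 names of the Spalax table was read as the letter t, and 12355 of its rows are provisional loci that nothing used here pairs with names. The members and all gene lists were chosen with earlier results of these data known. Comparisons used limma 3.58.1 (lmFit, and eBayes with a trend) in R 4.3.3 on log2(value + 1), over all genes of a table whose values reached 10 in a number of libraries equal to the size of the smaller group, with Benjamini-Hochberg adjustment at 0.05. A fold change on this scale understates the change of low genes. Alternatives were edgeR 4.0.16 (quasi-likelihood) and DESeq2 1.42.0 (Wald) on the whole reads, pseudocounts of 0.5 and 5, no filter, scaling by total reads or TMM, 1 model over all libraries, the animal as a block, and leaving out each library. The tests were also run on simulated data. Mouse levels were compared between genes only per kilobase of exon (GENCODE vM21). Heavy chain shares were given where at least 100 heavy chain reads were counted. Coding sequences were aligned with MAFFT 7.526.

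All members are named. Other genes come from the lists of myosin chains, myosin partners and cell type markers, and from the 5 genes most like Myh7 and Myh3 over the 12 Spalax muscle libraries, of which 1 is not reported here. A member's fold change is given where it passed the test or reached 2 SE, and elsewhere where a comparison of members needs it. Each library is a separate animal or side, and the closest pair of libraries of 1 group differed by a chi-square of 48.1 per degree of freedom, so none was counted as a duplicate. The p-values measure the spread between these animals. IS and UIS of a tumor-bearing animal are paired by the animal's number. The correlation of their deviations from the group means was -0.06 to 0.05 in Spalax tumors and 0.05 to 0.18 in mouse. Intervals of shares and of summed read ratios cover counting error only.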

Additional observations from a re-analysis of the deposited data

Results flagged for a closer look

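Of 28 checks of 1 library standing apart in a group of 4, 7 were positive. Chance is taken to give about 5%, but the checks used values without a log and genes of the same libraries. The 7 can therefore not be set directly against that share. In the 4 Spalax IS libraries, granuloma IS 600 was the highest for all 7 members and stood apart for 5, with 87.1 normalized reads of Myh7, 453 of Myh3, 200.3 of Myh8, 544 of Myl1 and 225 of Myl2. These 5 come from 1 library and are not separate events. Skeletal muscle markers also summed highest in this library among the 4, at 6958. In the 4 UIS libraries of tumor-bearing Spalax, UIS 976 stood above the others for Myh3 at 13951 normalized reads. In the controls, 1075 stood below the other 3 for Myl1 at 208873 normalized reads.

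The embryonic light chain Myl4 had opposite signs in the 2 kinds of Spalax tumor. By normalized reads it was higher in IS than in UIS in both granuloma animals, by 2.32 in 600 and 0.04 in 976 on the log2 scale (mean 1.18). In both fibrosarcoma animals it was lower, at -3.58 in 2240 and -0.35 in 2230 (mean -1.96, adjusted p = 0.145 by limma and 0.0263 by DESeq2). The sign in 2230 depends on the scaling. Its IS had 130 of 21594853 reads and its UIS 70 of 17025447, which is higher in IS per total reads. The interaction of -3.14 ± 1.34 (SE) had an adjusted p of 0.946 by limma and 0.236 by DESeq2, over 2 animals of each kind.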

How the results depend on the processing

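No member reversed its direction past the test under any alternative run, over the scaling, the pseudocounts, the filter, the tools, the model over all libraries and each library left out. Of the counts of members called, 151 stayed within 1.5 times the reported count, 6 rose above it and 10 fell below it, and 34 of 36 heavy chain share values moved by less than 1 SD between libraries. The 151 include counts of 0 against a reported 0, as between muscle and muscle, which do not bear on how stable a call is. The causes were not tested. DESeq2 called 1 member in UIS against control in Spalax (Myl3) and 1 in mouse (Myh4), 7 of 7 in Spalax fibrosarcoma IS against UIS (Myl4 added), 2 in the difference between fibrosarcoma and granuloma, and 4 in that between Spalax and mouse. EdgeR called 2 in granuloma IS against UIS. DESeq2 gave no adjusted p for Myh3, Myh8 and Myl4 in mouse IS against UIS. Leaving out 1 library gave 0 to 0 members in granuloma IS against UIS, 0 to 6 in Spalax fibrosarcoma, 2 to 8 in mouse and 0 to 4 in the difference between Spalax and mouse fibrosarcoma. With Myh6, Myh7b, Myh13 and Myh15 added to the heavy chains, the Myh7 share was 81.5% in Spalax fibrosarcoma UIS and 82.1% in tolerant. Scaling by total reads moved the median log2 difference of all genes between IS and UIS to 0.72 in granuloma, 0.83 in Spalax fibrosarcoma, 0.77 over the Spalax tumors and 1.16 in mouse, far less than the drops of the members called. With the replicate block that pairs IS and UIS of an animal, the counts were 4 in granuloma, 6 in Spalax fibrosarcoma, 6 over the Spalax tumors, 6 in mouse, and 0 in both differences, and no call of a member changed.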
